A study of Mus musculus with 50 samples.

Results

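The 10 genes described here encode the kinase mTOR, subunits of its 2 complexes, the regulators that act on it and its best known targets: Mtor, Rptor, Rictor, Tsc1, Tsc2, Rheb, Eif4ebp1, Rps6kb1, Deptor and Ddit4. They were chosen by name, and each was found in exactly 1 row of a table of 37701 genes. All 10 were among the 16733 genes with a mean of at least 0.5 RPKM (reads per kilobase, with library sizes brought to a common value) that were tested. The table holds 50 mammary gland (MG) tumors of female p53R270H/+WAPCre mice, in which Cre driven by the WAP promoter switches on a heterozygous mutant p53 allele in mammary epithelium. The mice were 8 weeks old when subcutaneous injections on alternate days began with vehicle, insulin, glargine, X10 or IGF1, and each tumor was taken at 1 cm3, 24 h after the last injection. Each group had 10 tumors, and the controls, titled untreated in the labels, are taken as the vehicle group; single tumors are named by their titles. Every group, vehicle included, carries the p53 mutation and Cre. The study describes the tumors it selected as EMT-like, with a latency near the median of their group.

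mTOR is a kinase that matches growth to nutrients and hormones. With Raptor (Rptor) it forms complex 1, which promotes protein synthesis by phosphorylating the S6 kinase (Rps6kb1) and the translation repressor 4E-BP1 (Eif4ebp1), and with Rictor it forms complex 2, which phosphorylates AKT. Insulin and IGF1 receptors act through AKT on the TSC complex (Tsc1 and Tsc2), which otherwise keeps the GTPase Rheb inactive, while Deptor binds and restrains mTOR and Ddit4 (REDD1), a stress and hypoxia responsive gene, restrains complex 1 through the TSC complex. This regulation acts largely on phosphorylation and protein binding, and the table measures RNA only.

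Libraries held 26.6 to 51.9 M reads, as recovered from the steps in the RPKM values. The RPKM values of the 10 genes rested on median read numbers per tumor between 1071 for Deptor and 3272 for Eif4ebp1, with the lowest number in any tumor, 368, in Deptor. The read numbers of Rictor (median 1908) assume the length of its longest transcript, 9312 bases, since no length could be recovered for it. Markers of other cells varied between tumors: the summed RPKM of 5 skeletal muscle genes lay between 2.77 and 4251, that of 5 adipocyte genes between 17.8 and 506.1, that of 5 leukocyte genes between 133.4 and 585.2, that of 5 endothelial genes between 48.1 and 136.3, and that of 5 fibroblast genes between 2320 and 28440. The 6 epithelial marker genes were all detected, and their summed RPKM lay between 9.58 and 5098, so that some of the tumors had high levels of epithelial markers. In whole tumors, fewer cells of a type and less RNA per cell cannot be told apart.

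Across the 50 tumors Eif4ebp1 had the highest mean RPKM (87.3), followed by Rps6kb1 (56.4), Mtor (50.5), Rheb (41.0), Rptor (30.5), Ddit4 (27.2), Tsc1 (12.9), Tsc2 (11.6), Deptor (8.68) and Rictor (5.12). Neighbours in this order overlapped in every case: the gene with the higher mean was the higher one in 33 of 50 tumors for Rptor and Ddit4, the closest pair, and in 44 of 50 for Rheb and Rptor or Ddit4 and Tsc1, the most separate ones. The order depends on the gene length by which the authors divided. The length that the steps in the values give was 1616 bases for Mtor, or 18.9% of its longest GENCODE M21 transcript, 754 bases for Rps6kb1 (13.6%) and 981 bases for Eif4ebp1 (49.1%), but 6018 bases for Tsc2 (96.0%). Per kilobase of the longest transcript, the order became Eif4ebp1 (42.9), Ddit4 (26.1), Rheb (18.1), Rptor (12.4), Tsc2 (11.2), Mtor (9.53), Rps6kb1 (7.69), Tsc1 (6.10) and Deptor (3.35), so that Mtor and Rps6kb1 fell below Rheb, Rptor and Tsc2. For Rictor no length could be recovered, and it has no value on this scale. Comparisons of one gene between tumors do not depend on this length.

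The 10 genes differed widely in how far they varied. Rheb, Tsc1 and Tsc2 were among the steadiest genes of the table: their SD on the log2 scale was 0.24, 0.24 and 0.26, and 4.54%, 5.26% and 8.88% of the tested genes had a smaller one. Rptor (0.28) and Rps6kb1 (0.31) and Mtor (0.32) followed. Ddit4 varied most (0.82, larger than that of 87.1% of the tested genes), with a 13.5-fold range from 8.02 RPKM in insulin_15 to 108.7 RPKM in Untreated_174, a vehicle tumor. Deptor (0.59) and Rictor (0.57) came next, the latter with a 9.72-fold range between 1.353 RPKM in Untreated_174 and 13.2 RPKM in X10_116.

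**Figure D1:**
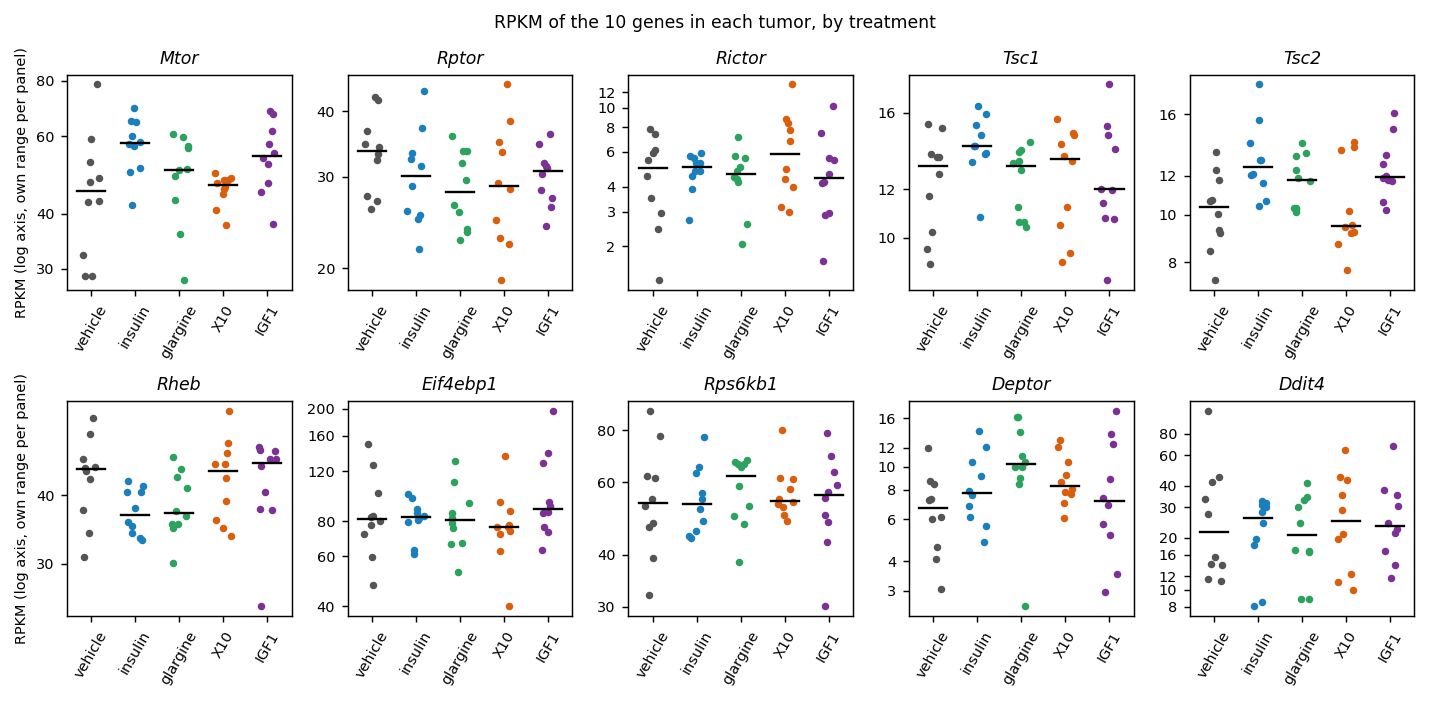
RPKM of each of the 10 genes on a log axis with its own range per panel, for the 10 tumors of each treatment; each point is a tumor and the bar is the group median. The 5 groups overlap for every gene, and Ddit4 spreads from 8.02 to 108.7 RPKM while Tsc1 stays between 8.54 and 17.8 RPKM.

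The kinase itself, Mtor (ENSMUSG00000028991, chr4:148448611-148557683 in GRCm38, plus strand), had in vehicle tumors a lowest, median and highest value of 28.9, 45.0 and 78.6 RPKM. In insulin tumors these were 42.0, 57.8 and 69.5 RPKM, in glargine tumors 28.3, 50.4 and 60.6 RPKM, in X10 tumors 37.7, 46.4 and 49.6 RPKM, and in IGF1 tumors 38.0, 54.2 and 68.2 RPKM. The insulin and IGF1 medians were the highest and the X10 tumors were the most alike, but each treated group overlapped with vehicle. The log2 fold change against vehicle was 0.37 ± 0.14 (SE) for insulin (limma, p = 0.00975, adjusted p = 0.342 over all tested genes), 0.28 ± 0.14 for IGF1 (adjusted p = 0.544), 0.12 ± 0.14 for glargine (adjusted p = 0.911) and just 0.04 ± 0.14 for X10 (adjusted p = 0.946).

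Of the complex subunits, Rptor (ENSMUSG00000025583, chr11:119602905-119899576, plus strand) had group medians between 28.0 RPKM in glargine and 33.7 RPKM in vehicle tumors. Its estimate was lower than vehicle in all 4 treatments, by log2 fold changes from -0.15 to -0.22, with adjusted p-values between 0.577 and 0.815 (limma). Rictor (ENSMUSG00000050310, chr15:6708379-6800401, plus strand) had its highest median in X10 tumors, 5.85 RPKM (2.99 to 13.2), where the vehicle median was 5.00 RPKM (1.353 to 7.87). This difference, a log2 fold change of 0.40 ± 0.25, did not pass the test (adjusted p = 0.567, limma). Deptor (ENSMUSG00000022419, chr15:55112317-55259271, plus strand), which restrains mTOR, had a lowest, median and highest value of 3.06, 6.69 and 12.0 RPKM in vehicle and of 2.58, 10.2 and 16.2 RPKM in glargine tumors. Its log2 fold change in glargine, 0.60 ± 0.25, was the largest of any of the 10 genes against vehicle, and it did not pass the test either (p = 0.0222, adjusted p = 0.789, limma). The summed RPKM of the adipocyte markers was also highest in the glargine group, with a median of 185.1 against 51.99 in vehicle. With the muscle, adipocyte and epithelial scores as covariates the log2 fold change of Deptor in glargine was 0.59, and over the 50 tumors Deptor and the adipocyte score had r = 0.117.

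The TSC complex and Rheb sit upstream of complex 1. Tsc2 (ENSMUSG00000002496, chr17:24595816-24632630, minus strand) had a lowest, median and highest value of 7.35, 10.4 and 13.4 RPKM in vehicle, 10.4, 12.5 and 18.4 in insulin, 10.1, 11.8 and 14.0 in glargine, 7.72, 9.47 and 14.0 in X10 and 10.2, 11.9 and 16.1 in IGF1 tumors. Every insulin, glargine and IGF1 tumor was above 10 RPKM, while vehicle and X10 tumors reached below 8 RPKM. The log2 fold change was 0.33 ± 0.11 for insulin against vehicle (p = 0.00448, adjusted p = 0.304), 0.27 ± 0.11 for IGF1 against vehicle (p = 0.0161, adjusted p = 0.429) and -0.31 ± 0.11 for X10 against insulin (p = 0.00719, adjusted p = 0.221, limma). None of these passed the test over all genes. No marker gene of other cells was called in these comparisons (limma). All 5 leukocyte markers had an estimate above 0 in insulin tumors against vehicle, 3 with an unadjusted p under 0.05 and a median log2 fold change of 0.61. All 5 were also above 0 in IGF1 (median 0.26) and X10 tumors (0.22), and 4 in glargine tumors (0.47), 0 with such a p. All 6 epithelial markers had an estimate below 0 in IGF1 tumors, 3 with such a p and a median of -1.36. All 6 were below 0 in insulin tumors too, 1 with such a p and a median of -0.59. For X10 against insulin no marker had such a p. With the muscle, adipocyte and epithelial scores as covariates, the log2 fold changes of Mtor and Tsc2 were 0.34 and 0.33 in insulin and 0.22 and 0.28 in IGF1 tumors. The part of leukocytes was not tested. The leukocyte score had r = 0.218 with Mtor and 0.025 with Tsc2 over the 50 tumors. Tsc1 (ENSMUSG00000026812, chr2:28641228-28691167, plus strand), the other subunit, had medians between 12.0 RPKM in IGF1 and 14.1 RPKM in insulin tumors. Rheb (ENSMUSG00000028945, chr5:24802823-24842624, minus strand) had medians of 36.9 RPKM in insulin and 37.1 RPKM in glargine tumors and of 44.3 to 45.9 RPKM in the other groups, with a log2 fold change of -0.19 ± 0.11 for insulin against vehicle (adjusted p = 0.498, limma).

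The last 3 genes are the complex 1 targets and the stress regulator Ddit4. Eif4ebp1 (ENSMUSG00000031490, chr8:27260329-27276674, plus strand) had medians between 76.1 RPKM in X10 and 88.2 RPKM in IGF1 tumors, and its highest value was 196.7 RPKM in IGF1_160. Rps6kb1 (ENSMUSG00000020516, chr11:86498871-86544805, minus strand) had medians between 53.1 RPKM in insulin and 61.96 RPKM in glargine tumors. Ddit4 (ENSMUSG00000020108, chr10:59949669-59951834, minus strand) had medians between 20.7 RPKM in glargine and 26.2 RPKM in insulin tumors. All groups overlapped for all 3 genes.

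Of the 10 genes, 0 passed an adjusted p of 0.05 (limma) in any comparison. The background of calls was equally thin: 0% of the tested genes were called for insulin or glargine against vehicle and for glargine against insulin, 0.0657% for X10 against vehicle, 0.00598% for IGF1 against vehicle, 0.155% for X10 and IGF1 against the other 30 tumors, 0.102% for X10 against insulin and 0.102% for any difference among the 5 groups. At an unadjusted p under 0.05, Mtor and Tsc2 appeared for insulin, for IGF1, for X10 against insulin and for any difference, and Deptor for glargine. No member appeared for X10 against vehicle, for X10 and IGF1 pooled or for glargine against insulin. Among all tested genes 11.1%, 6.23%, 11.0% and 8.84% had such a p for insulin, glargine, X10 and IGF1 against vehicle. The share was 10.5% for X10 and IGF1 pooled, 3.96% for glargine against insulin, 11.3% for X10 against insulin and 13.1% for any difference. With limma voom on the recovered reads, 0 of the 10 were called in every comparison and the counts at an unadjusted p were the same.

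A p that misses the threshold does not show that levels were alike. For the pooled X10 and IGF1 comparison the estimates lay between -0.05 for Tsc1 and 0.17 for Rictor on the log2 scale, and all 95% intervals of the 10 genes lay between -0.32 and 0.64, with the widest for Ddit4. For single treatments the intervals reached from -0.99 (Ddit4 in glargine) to 1.11 (Deptor in glargine), so that changes of up to these sizes in these 2 genes lie within the intervals, while those of Rheb and Tsc1 against vehicle lay between -0.41 and 0.42. The median log2 fold change over the 10 genes against vehicle was 0.07 in insulin, 0.02 in glargine, 0.02 in X10 and 0.04 in IGF1 tumors, where the median over all tested genes was 0.03, 0.02, -0.03 and 0.02.

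**Figure D2:**
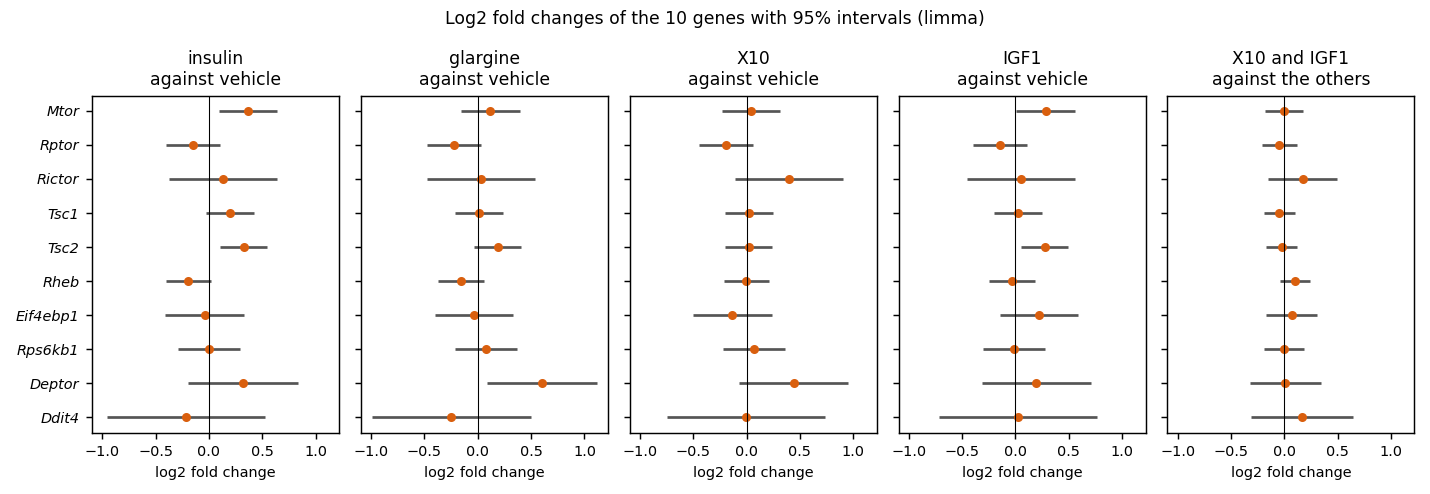
Log2 fold changes (points) with 95% intervals (lines) from limma for the 10 genes in 5 comparisons; "the others" are the vehicle, insulin and glargine tumors. Intervals are widest for Ddit4, Deptor and Rictor, and 5 of them leave out 0: Mtor and Tsc2 in insulin, Mtor and Tsc2 in IGF1 and Deptor in glargine.

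The ratio of Rptor to Rictor compares the defining subunits of the 2 complexes. On the log2 scale its mean was 2.81 ± 0.68 (SD, n = 10) in vehicle, 2.53 ± 0.34 in insulin, 2.56 ± 0.52 in glargine, 2.22 ± 0.71 in X10 and 2.62 ± 0.58 in IGF1 tumors. The X10 tumors had the lowest mean, a difference of -0.60 from vehicle that did not pass (two-sided permutation test with 100000 resamples, p = 0.0708, adjusted p = 0.708 over 10 comparisons). The ratio of Eif4ebp1 to Eif4e, the cap binding factor that 4E-BP1 represses, had means between 1.12 in X10 and 1.38 in glargine tumors, and the smallest adjusted p of its 5 comparisons was 0.735.

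Further genes of the pathway were examined in 5 lists of 64 genes, of which 62 were tested, and 0 were called in any comparison (limma). At an unadjusted p under 0.05 there were 12 of them in insulin, 5 in glargine, 10 in X10 and 5 in IGF1 tumors against vehicle, or 19.4%, 8.06%, 16.1% and 8.06%. All tested genes had 11.1%, 6.23%, 11.0% and 8.84%. For X10 and IGF1 against the other tumors, the gene with the smallest p was Akt1s1 (PRAS40, an inhibitor subunit of complex 1, log2 fold change -0.12) among 8 complex partners, Rhebl1 (0.18) among 3 TSC and RHEB partners, Eif4g1 (a translation initiation scaffold, -0.25, adjusted p = 0.264) among 14 tested substrates and their partners, Nprl3 (a GATOR1 subunit, -0.17) among 27 amino acid sensing genes and Prkaa1 (an AMPK catalytic subunit, 0.27) among 10 tested upstream kinases. Of the remaining lists, the smallest p was that of Pgk1 among 12 hypoxia genes (0.40, adjusted p = 0.226), Vldlr among 12 ATF4 targets (0.54, adjusted p = 0.372), Tsc22d3 among 5 tested glucocorticoid targets (0.05) and Bub1 among 6 proliferation genes (0.21). All 12 hypoxia genes had an estimate above 0, with a median of 0.39 where all tested genes had -0.02; none was called, and 5 of the 12 had an unadjusted p under 0.05, where 10.5% of all tested genes had one. Ddit4 itself had 0.16 ± 0.24. In the same comparison 2 of 5 fibroblast markers had such a p, the smallest being that of Col1a1 (-0.60, adjusted p = 0.398, limma). The estimate was above 0 for 1 of the 5. For IGF1 against vehicle the fibroblast marker with the smallest p was Dcn, which was higher (1.09, p = 0.0272, adjusted p = 0.495, limma). The summed RPKM of the 5 fibroblast markers had medians of 7901 in X10 and 7322 in IGF1 tumors against 12360 in vehicle, 14140 in insulin and 9798 in glargine tumors. This sum reflects mainly collagen: Col1a1 and Col1a2 had means of 9359 and 1786 RPKM, while Dcn, Lum and Pdgfra had 344.9, 71.68 and 44.92 RPKM. The part of these markers in the hypoxia values was not tested.

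Across the 50 tumors, several of the 10 genes correlated with the scores of other gene lists. The scores used here are the mean z-score of a list in a tumor, and p-values are from two-sided permutation tests over the 50 tumors (100000 resamples, of which 1e-05 is the smallest p), adjusted over all 180 relations of the 10 genes with 15 lists and 3 library measures. Ddit4 followed the hypoxia score (genes such as Car9, Vegfa and Slc2a1): r = 0.659, rho = 0.624, p = 1e-05, adjusted p = 0.0009. Without the 2 tumors with the most extreme scores r was 0.601, and with values centred within treatment groups it was 0.672. Eif4ebp1 followed the score of targets of ATF4, the transcription factor of the amino acid and integrated stress response (Asns, Trib3 and Psat1 among them), with r = 0.598, rho = 0.601 and adjusted p = 0.0009, and with r = 0.581 without the 2 extremes and 0.570 within groups. It followed the hypoxia score as well (r = 0.552, rho = 0.517, adjusted p = 0.0012; 0.495 without the extremes). Ddit4 also rose with the ATF4 targets (r = 0.463, rho = 0.522, adjusted p = 0.0187; 0.509 without the extremes). No relation passed with the scores of complex partners, TSC and RHEB partners, substrates, amino acid sensing genes, glucocorticoid targets, adipocytes, skeletal muscle or endothelium. None passed with library size or the share of summed RPKM from processed pseudogenes either. Over all of these r lay between -0.387 and 0.382 (smallest adjusted p = 0.0626, permutation test).

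**Figure D3:**
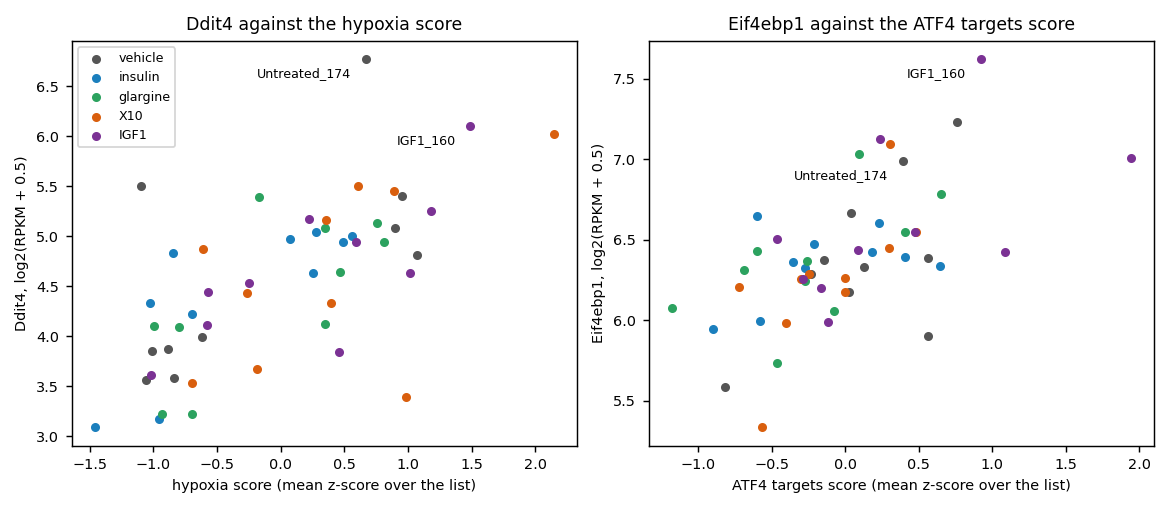
Left, Ddit4 as log2(RPKM + 0.5) against the hypoxia score; right, Eif4ebp1 against the ATF4 target score, both scores being mean z-scores over a list; each point is a tumor, coloured by treatment. Both genes rise with the score (r = 0.659 and 0.598) and tumors of all 5 treatments are mixed along the slope.

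The sequence upstream of Ddit4 is shown because Ddit4 had the strongest relation to the hypoxia list. These are the 250 bases before its RefSeq start, chr10:59951771-59952020 in GRCm38.p6, minus strand, written 5′ to 3′, with the letters ACGTG or GCGTG, the core of the element that hypoxia inducible factors bind, in capitals:
Ddit4: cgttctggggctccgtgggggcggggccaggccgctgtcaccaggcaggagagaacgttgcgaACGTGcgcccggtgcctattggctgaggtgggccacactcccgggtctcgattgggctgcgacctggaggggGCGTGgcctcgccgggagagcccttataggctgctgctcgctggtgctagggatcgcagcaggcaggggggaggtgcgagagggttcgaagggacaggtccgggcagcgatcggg
In GENCODE M21 the gene starts at 59951834, inside this window, so the last bases shown lie within the gene as annotated there. The core occurs at 2 places in this window. It was searched on both strands and 38.6% of 32851 promoter windows of this length in the RefSeq table hold it; among the 8 of the 10 genes with an entry, Rptor and Rheb also had 2 places, Rictor, Tsc1, Tsc2 and Rps6kb1 had 1 and Mtor had 0, although Rptor and Rheb had r = -0.117 and -0.118 with the hypoxia score. In Rheb both places lie within 1 CACGTG, a motif found in 6.02% of the windows. Both forms of the core contain CG. The share of all windows with fewer CG was 85.2% for Ddit4 and ranged from 59.7% for Rptor to 98.7% for Rictor. The 38.6% was not matched for CG. The letters TGATGNAA, of the element that ATF4 binds with C/EBP factors, were in none of the 8 windows and in 3.45% of all. Eif4ebp1 and Deptor were not among the entries used.

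In pairs, the 10 genes gave 7 of 45 relations with an adjusted p under 0.05. Mtor, Rictor and Tsc1 rose together: r was 0.706 for Rictor and Tsc1 (rho = 0.685, adjusted p = 0.00045), 0.537 for Mtor and Tsc1 (rho = 0.604, adjusted p = 0.00135) and 0.456 for Mtor and Rictor (rho = 0.377, adjusted p = 0.00792). These 3 genes also had the strongest relation to an index of transcript length, the mean log2 level of 1195 protein coding genes with a longest transcript of at least 7000 bases minus that of 1632 genes of at most 1500 bases: r was 0.817 for Rictor, 0.715 for Tsc1 and 0.658 for Mtor. With this index regressed out, r fell to 0.303 for Rictor and Tsc1, to 0.127 for Mtor and Tsc1 and to -0.187 for Mtor and Rictor, and none of the 3 passed. When the 2 tumors with the most extreme value of the first gene were left out, r was 0.694, 0.531 and 0.374, the last no longer past the threshold (adjusted p = 0.0577, permutation test). Rictor also rose with the share of summed RPKM from mitochondrially encoded genes (r = 0.545, adjusted p = 0.00252), as did Rheb (r = 0.404, adjusted p = 0.0477), with rho = 0.556 and 0.355. By Spearman's rho neither Rheb with this share (adjusted p = 0.12) nor Mtor with Rictor (adjusted p = 0.0613) passed (permutation tests).

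A second set of relations linked Ddit4, Eif4ebp1 and Rps6kb1. Rps6kb1 fell where Ddit4 was high (r = -0.490, rho = -0.421, adjusted p = 0.0045) and where Eif4ebp1 was high (r = -0.478, rho = -0.291, adjusted p = 0.0045), and Ddit4 and Eif4ebp1 rose together (r = 0.440, rho = 0.420, adjusted p = 0.0106). Proliferation genes such as Mki67 and Top2a went the same way: their score had r = 0.494 with Rps6kb1 (adjusted p = 0.00797) and r = -0.511 with Ddit4 (adjusted p = 0.0036). Ddit4 was further related to leukocyte (r = -0.440, adjusted p = 0.027) and epithelial markers (r = 0.420, adjusted p = 0.0327), Rheb to fibroblast markers (r = -0.401, adjusted p = 0.0477), and Mtor to Rps6kb1 (r = 0.411, rho = 0.329, adjusted p = 0.0203). The length index was related to this set too, with r = -0.517 for Eif4ebp1, 0.448 for Rps6kb1 and -0.315 for Ddit4. With the index regressed out, Rps6kb1 with Ddit4 (r = -0.412, adjusted p = 0.0412) and Ddit4 with proliferation (-0.442, adjusted p = 0.0372) still passed. Eif4ebp1 with Rps6kb1 (-0.321, adjusted p = 0.143), Eif4ebp1 with Ddit4 (0.341, adjusted p = 0.132), Mtor with Rps6kb1 (0.172, adjusted p = 0.476) and Rps6kb1 with proliferation (0.385, adjusted p = 0.0663) did not. Neither did Ddit4 with ATF4 targets (0.393, adjusted p = 0.0644), leukocyte (-0.384, adjusted p = 0.0663) or epithelial markers (0.371, adjusted p = 0.0828). Ddit4 with hypoxia (0.631) and Eif4ebp1 with hypoxia (0.509) and with ATF4 targets (0.511) passed as well (permutation tests). Other relations grew when the index was regressed out. Rictor with hypoxia went from r = 0.142 to 0.623, close to that of Ddit4, and Rictor with ATF4 targets from -0.074 to 0.428. Rictor with Ddit4 went from 0.022 to 0.510 and Tsc1 with Rps6kb1 from -0.008 to -0.525. With the proliferation score regressed out instead, none of the pairs in this set passed: r was -0.318 for Rps6kb1 with Ddit4 (adjusted p = 0.13), -0.372 for Eif4ebp1 with Rps6kb1 (0.0837), 0.322 for Eif4ebp1 with Ddit4 (0.13) and 0.285 for Mtor with Rps6kb1 (0.186). When the 2 tumors with the most extreme value of the first gene or score were left out, r was -0.450 for Rps6kb1 with Ddit4, -0.394 for Eif4ebp1 with Rps6kb1, 0.435 for Eif4ebp1 with Ddit4 and 0.349 for Mtor with Rps6kb1. It was 0.417 for proliferation with Rps6kb1, -0.434 for proliferation with Ddit4, -0.395 for leukocytes and 0.317 for epithelium with Ddit4, and -0.320 for fibroblasts with Rheb. Of these, Mtor with Rps6kb1 (adjusted p = 0.0848), proliferation with Rps6kb1 (0.0513), leukocytes with Ddit4 (0.0698), epithelium with Ddit4 (0.16) and fibroblasts with Rheb (0.16) no longer passed (permutation tests). By Spearman's rho, Ddit4 passed with leukocyte markers (-0.442, adjusted p = 0.0393) but not with proliferation (-0.386, adjusted p = 0.082) or epithelial markers (0.322, adjusted p = 0.177), and neither Rps6kb1 with proliferation (0.406, adjusted p = 0.0594) nor Rheb with fibroblast markers (-0.374, adjusted p = 0.0843) passed (permutation tests). Of the pairs, Mtor with Rps6kb1 (adjusted p = 0.13) and Eif4ebp1 with Rps6kb1 (adjusted p = 0.184) did not pass by rho.

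Several of these relations lean on 2 tumors. IGF1_160 had the highest Eif4ebp1 (196.7 RPKM), the lowest Rps6kb1 (30.0 RPKM) and Rheb (25.1 RPKM) and the second highest Ddit4 (68.0 RPKM) of the 50 tumors, with the lowest proliferation score, leukocyte score, mitochondrial share and length index. Untreated_174 had the highest Ddit4 and the lowest Rictor, with the second lowest proliferation score and length index. Without both, 2 of the 45 pairs remained past the threshold, Rictor with Tsc1 (r = 0.673) and Mtor with Tsc1 (r = 0.476), and r was -0.375 for Rps6kb1 and Ddit4, -0.331 for Rps6kb1 and Eif4ebp1 and 0.311 for Ddit4 and Eif4ebp1. Of the 180 relations with scores 14 passed with all tumors and 4 without both, among them Ddit4 with hypoxia (r = 0.644), Eif4ebp1 with ATF4 targets (r = 0.560) and Eif4ebp1 with hypoxia (r = 0.494).

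**Figure D4:**
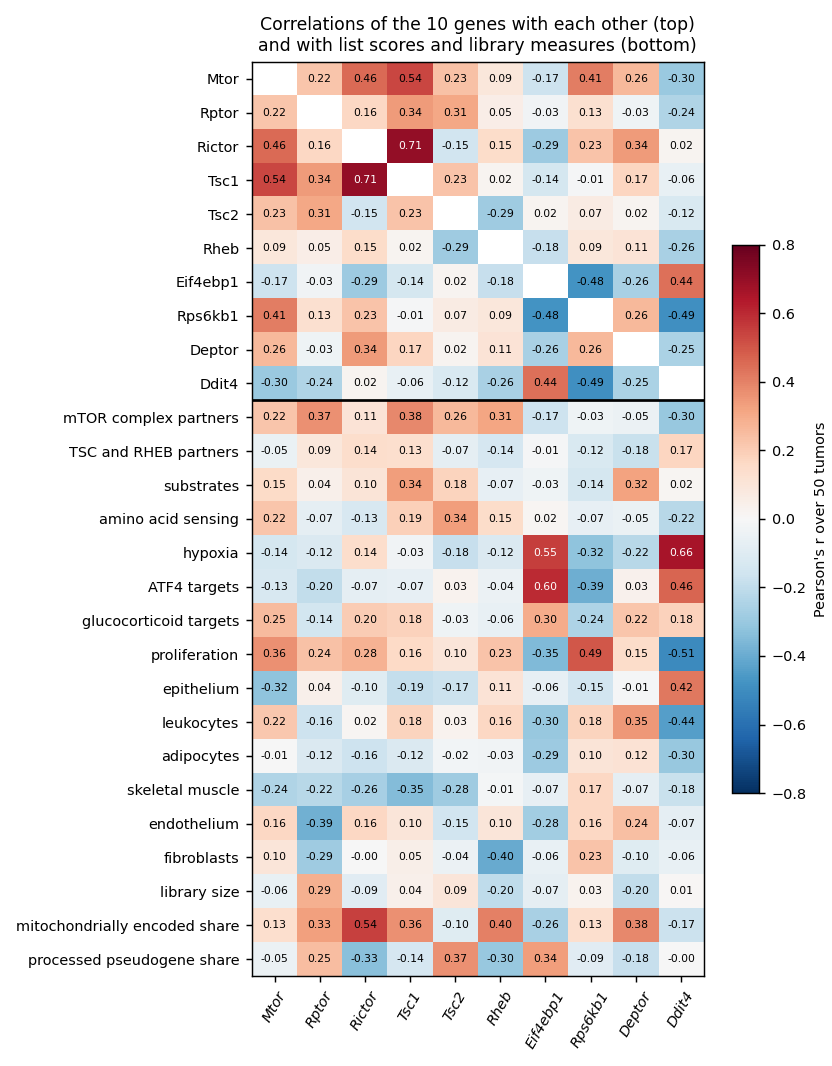
Pearson's r over 50 tumors between the 10 genes (upper block) and of each gene with list scores and 3 library measures (lower block); red is positive and blue negative. The strongest cells are Rictor with Tsc1 (0.706), Ddit4 with hypoxia (0.659) and Eif4ebp1 with ATF4 targets (0.598).

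The genes whose pattern over the 50 tumors was most like that of each member often lay on the same chromosome, near the member or far from it. For Rps6kb1 they were Appbp2 (r = 0.882), Stxbp4 (0.830) and Ddx52 (0.824), all on chromosome 11 and 1.31, 4.09 and 2.60 Mb away. For Rptor they were Nploc4 (0.802), Csnk1d (0.764) and 2310067B10Rik (0.742), 0.835, 1.39 and 3.84 Mb away on the same chromosome. For Tsc2 they were Mlst8 (0.666), which itself encodes a subunit of both mTOR complexes and lies 0.154 Mb away, Akap8l (0.660, 7.72 Mb away) and Ppp2r5d (0.650, 22.1 Mb away), all on chromosome 17. For Rheb they were Nom1 (0.738), Pacrgl (0.736) and Slbp (0.722), all on chromosome 5 and 4.59, 23.5 and 8.81 Mb away. Rictor was most like Nipbl (0.903, 1.74 Mb away), AW549877 (0.896, 2.71 Mb away) and Dmtf1 (0.889, chromosome 5), and Tsc1 was most like Mbd5 (0.825, 20.3 Mb away) and Abl1 (0.818, 3.05 Mb away), both on its chromosome 2, and Gatad2b (0.809).

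For Mtor, Eif4ebp1, Deptor and Ddit4 the genes most alike lay mostly elsewhere. Mtor was most like Phactr4 (0.7603), Setd7 (0.751) and Trrap (0.747), of which the first is on its chromosome 4, 16.0 Mb away. Eif4ebp1 was most like Gm14143 (a processed pseudogene, 0.729), Sra1 (0.697) and Ppp1r15a (0.685, which encodes a phosphatase subunit of the integrated stress response), Deptor like Fam129a (0.687), Zfp799 (0.648) and Tlr5 (0.646), and Ddit4 like Cacnb3 (0.788), Rhov (0.761) and Cebpb (0.741), all on other chromosomes than the member.

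Among the 50 genes most like it, 48 were on the same chromosome as Rptor, 42 for Rps6kb1 and 38 for Rheb, where chromosomes 11 and 5 hold 8.37% and 5.89% of the tested genes. The count was 20 for Tsc1 and for Tsc2, 17 for Rictor, 7 for Eif4ebp1, 4 for Mtor, 2 for Deptor and 1 for Ddit4. Fewer lay within 10 Mb of the member: 33 of the 50 for Rps6kb1, 26 for Rptor, 9 for Tsc2, 5 for Rictor and for Tsc1 and 3 for Rheb. Sharing a chromosome was common in this table: over all tested genes with a position, the median share was 16.0% and the upper quartile 46.0%, and 98.0%, 93.5% and 90.4% of genes had a smaller share than Rptor, Rps6kb1 and Rheb, against 4.17% for Ddit4. The mean level of the tested genes within 5 Mb, a measure added after these lists had been seen, correlated with 6 of the 10 genes: Rps6kb1 (r = 0.675, rho = 0.583), Rictor (0.641, rho = 0.479, 43 genes), Rptor (0.593, rho = 0.597, 179 genes), Tsc2 (0.496), Rheb (0.496) and Deptor (0.487), with adjusted p-values of at most 0.00065 over 10 relations (permutation test). The median of this r over 16504 genes was 0.350, and 59.6% of them had an r above 0 with an unadjusted p under 0.05, so 6 of 10 is close to the share over all genes. Of these genes, 89.8% had a lower r than Rps6kb1, 86.5% than Rictor, 81.5% than Rptor, 69.6% than Tsc2 or Rheb and 68.4% than Deptor. For Ddit4 r was -0.152 and for Eif4ebp1 0.067. With the length index regressed out, 8 of the 10 genes passed; r was then 0.804 for Rptor, 0.795 for Rps6kb1, 0.638 for Tsc2, 0.486 for Rheb and 0.362 for Deptor, while Rictor, with 0.230, no longer passed (adjusted p = 0.121, permutation test). DNA copy number was not analysed here.

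**Figure D5:**
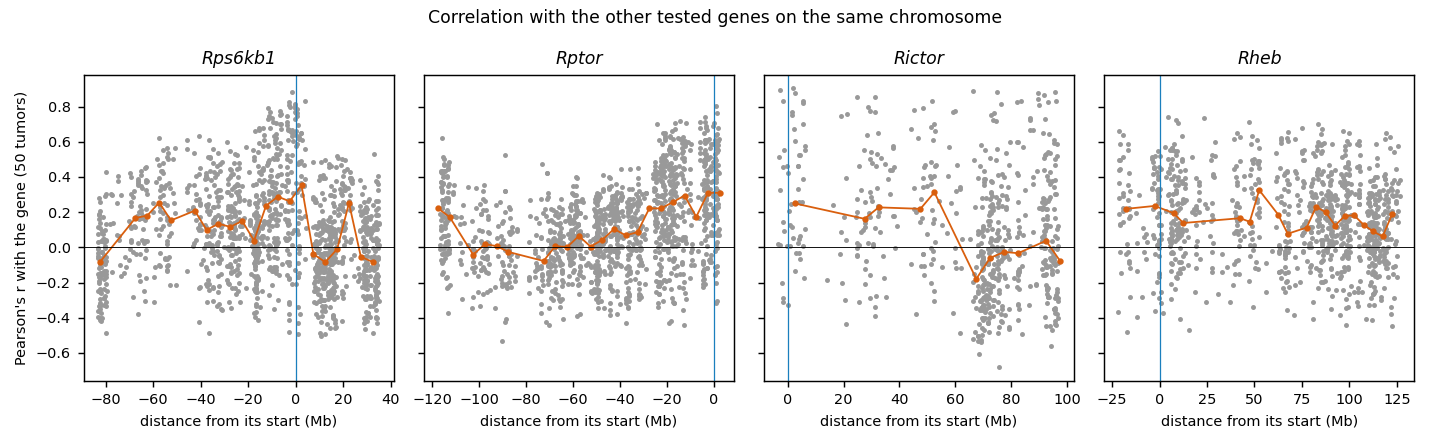
Pearson's r over 50 tumors of Rps6kb1, Rptor, Rictor and Rheb with every other tested gene on their chromosome (grey points), against the distance of that gene's start from the member's start in Mb; the orange line joins medians of 5 Mb bins with at least 20 genes. Within 5 Mb the median r was 0.318 for Rps6kb1, 0.310 for Rptor, 0.248 for Rictor and 0.277 for Rheb, where genes on other chromosomes had 0.043, 0.028, -0.048 and 0.023.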

How the data were processed

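Poly-A RNA of 50 tumors had been sequenced on the Ion Proton. For alignment to GRCm38 the authors used TopHat2 2.0.10 and Bowtie2; they counted reads per gene with HTSeq 0.6.1 under its default options, which use strand, and deposited RPKM values that were not log transformed. RPKM values are not counts, but every gene's values rise in equal steps, 1 read at a time, which gave back reads, gene lengths and library sizes (26.6 to 51.9 M reads); in each tumor 98.6% or more of the low values came out whole.

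The 16733 genes that averaged 0.5 RPKM or more were tested with limma 3.58.1 (R 4.3.3) on log2(RPKM + 0.5), which understates changes of low genes. All 5 groups and an intensity trend were in the fit, with Benjamini-Hochberg adjustment over every tested gene. Correlations and ratios were tested by permuting tumors (Python 3.11.15, numpy 2.4.6, scipy 1.17.1, pandas 2.3.3; plots with matplotlib 3.10.9). The procedures were tested on simulated data. Positions are from GENCODE M21 (GRCm38), promoters from RefSeq (GRCm38.p6). The genes named are the 10 members, any list gene with an adjusted p under 0.05 (there was none), the gene of smallest p per pathway list in the X10 and IGF1 comparison, and the 3 genes most correlated with each member. The score of 1 gene list is not reported here; 3 of the 14 relations with scores that passed, and 1 of the 4 that passed without IGF1_160 and Untreated_174, belong to it. Members and lists were chosen with earlier results of these data known. Each tumor has a number of its own, which the labels do not define as a mouse, and p-values measure the spread between these tumors.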

Additional observations from a re-analysis of the deposited data

Results flagged for a closer look

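In 4 of 50 combinations of gene and group, 1 tumor stood apart from the other 9 by a gap that exceeded Dixon's critical value for 10 samples, where chance gives about 1 in 20. Ddit4 was 108.7 RPKM in Untreated_174, a vehicle tumor, where the next tumor had 45.0 RPKM and the group median was 21.5 RPKM. Ddit4 was 68.0 RPKM in IGF1_160, where the next tumor had 37.7 RPKM, and Rheb was 25.1 RPKM in the same tumor, where the next lowest had 37.6 RPKM. Rps6kb1 was 80.4 RPKM in X10_95, where the next tumor had 61.3 RPKM.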

How the results depend on the processing

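None of the 10 genes was called in any treatment comparison under any alternative: a pseudocount of 0.1 or 1, no filter or a minimum of 5 RPKM on average, scaling by quantiles or by the upper quartile, a fit without the trend, with library size or marker scores as covariates or with only the compared groups, limma voom, and leaving out IGF1_160 and Untreated_174. The smallest adjusted p over all of them was 0.0856. Of 840 fold changes under an alternative 38 changed sign, all of genes whose reported size was at most 0.25 on the log2 scale. No ratio comparison passed under the other pseudocounts or with medians. The count of correlated pairs, 7 as reported, was 4 by Spearman's rho, 3 with the length index regressed out, 2 with the proliferation score regressed out (Mtor and Rictor, each with Tsc1) and 2 without IGF1_160 and Untreated_174; of the 7 reported pairs 1, Rps6kb1 with Ddit4, was among the 3, and Mtor with Rictor turned to r = -0.187 with the length index regressed out. The count of relations with scores, 14 as reported, was 8 by Spearman's rho, 9 with the length index regressed out and 4 without the 2 tumors; 6 of the 14 were among the 9. The counts of both kinds under the other pseudocounts, quantile normalization, centring within groups and without the 2 most extreme tumors stayed within 1.5 times, but without the 2 most extreme tumors 5 of the 7 pairs and 8 of the 14 relations were among those counted; the count of genes that moved with their neighbours lay between 6 and 8 in all settings. Regressing out an index or score, leaving out IGF1_160 and Untreated_174 and the relation to neighbours were chosen after seeing the data. The causes were not tested.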
